A study of Rattus norvegicus with 4 samples.

Results

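Nucleosome positions whose summits lay at least 50 bp from the control summit in sperm of rats given cyproterone acetate or tamoxifen were described on chromosome 2. A summit is the base of highest coverage within a position, and its distance to the summit of the other side is given by the authors. A position was counted as shifted where that distance was at least 50 bp, summit coverage was at least 14 units in the treated library and it was at least 9 units in both controls pooled. Of 969963 positions in the cyproterone acetate table, 96725 met both coverage limits and 33512 of these were shifted. Of 895443 positions in the tamoxifen table, 130932 met the limits and 46376 were shifted. The 79888 rows come to 77642 when the 2246 pairs with centers within 10 bp in both lists are counted once. That number depends on the center limit, since 2972 pairs have centers within 50 bp. The positions were chosen by their measured distance and coverage, so both are given as descriptions with no test.

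The chromatin came from caudal epididymal spermatozoa of adult Holtzman rats, 75 days old per the labels. Cyproterone acetate, which blocks the androgen receptor, was given by mouth at 20 mg/kg per day for 60 days. Tamoxifen, a modulator of the estrogen receptors, was given by mouth at 0.4 mg/kg per day for the same time. Control rats received sterile water, in which both drugs had been dissolved, and each group held 6 animals. Each treatment had 1 library and the controls had 2, and the number of animals behind a library is not stated. All 4 were digested with 4 units of micrococcal nuclease and cut from a gel at about 150 bp.

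A nucleosome is a stretch of DNA wrapped around a histone core, and micrococcal nuclease cuts the linker between cores. During sperm maturation most histones are replaced by protamines, and a small share of the genome keeps nucleosomes. Where the core sits at the same bases in most cells, the protected fragments pile up at 1 summit with a narrow spread. Where it sits at different bases in different cells, the fragments spread, and the fuzziness score, a measure of that spread, is larger.

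Coverage was thin, so each unit was turned into reads. On chromosome 2 a read was worth 6.37 units in the cyproterone acetate library and 7.13 in the tamoxifen library. In the pool a read was worth 4.36 or 4.84 units in the cyproterone acetate table and 4.05 or 4.49 in the tamoxifen table, the lower value being that of the deeper control. Summit values came in even steps, and each step was taken as 0.5 reads. All read numbers below rest on this, which was not tested. By these values the pool was 1.39 times as deep as the cyproterone acetate library and 1.67 times as deep as the tamoxifen library. The controls themselves differed in depth by 1.11 times. The table that sets the shallower control against the deeper gives the only measure of how far summits lie apart without treatment, and there both sides had to reach 14 units. It is called the control pair below.

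Shifted summits made up 34.6% of the positions that met the limits under cyproterone acetate (95% Wilson interval 34.3% to 34.9%) and 35.4% under tamoxifen (35.2% to 35.7%). In the control pair they made up 31.6%, which was 32246 of 101893 positions (31.4% to 31.9%). Under these limits, shifts of this size were thus nearly as frequent between untreated libraries. The limits differ between the tables, and the gap was wider at equal read limits. With at least 3 reads on both sides the shares were 34.0%, 34.6% and 27.5%, in the same order. With at least 5 reads they were 26.2%, 29.4% and 20.6%. The intervals cover the counting of positions only. With 1 library per treatment there was no replicate check and no test of the difference between conditions.

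Most shifted positions rested on very few reads. The median at a shifted position was 3 reads in the cyproterone acetate library beside 3 in the pool, 2 in the tamoxifen library beside 4 in the pool, and 2 on each side of the control pair. The less covered side held at most 3 reads at 79.4% of shifted positions under cyproterone acetate, 85.9% under tamoxifen and 94.4% in the control pair. It held at least 5 reads at 1614 positions under cyproterone acetate, 1688 under tamoxifen and 440 in the control pair. The limits also mean different read numbers in each table, since 14 units were reached with 2.5 reads of cyproterone acetate and 2 of tamoxifen.

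Shifts had the same size in all 3 tables. The median distance was 60 bp, with quartiles of 50 and 80 bp, under cyproterone acetate, under tamoxifen and in the control pair. Distances of at least 70 bp made up 45.6% of shifts under cyproterone acetate, 45.7% under tamoxifen and 46.1% in the control pair. Those of at least 90 bp made up 11.8%, 12.0% and 12.1%, in the same order. No distance in the tables passed 98 bp, so a larger displacement does not appear as one here.

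Shifts lay about equally on either side of the control summit. The treated summit lay at the higher coordinate at 16860 of 33512 positions under cyproterone acetate (50.3%) and at 23341 of 46376 under tamoxifen (50.3%). The summit of the shallower control lay above that of the deeper at 16206 of 32246 positions (50.3%). As shares of all positions that met the limits, shifts to the higher coordinate were 17.4% under cyproterone acetate, 17.8% under tamoxifen and 15.9% in the control pair, and those to the lower coordinate were 17.2%, 17.6% and 15.7%. The orientation of these positions relative to genes was not analysed here.

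**Figure D1:**
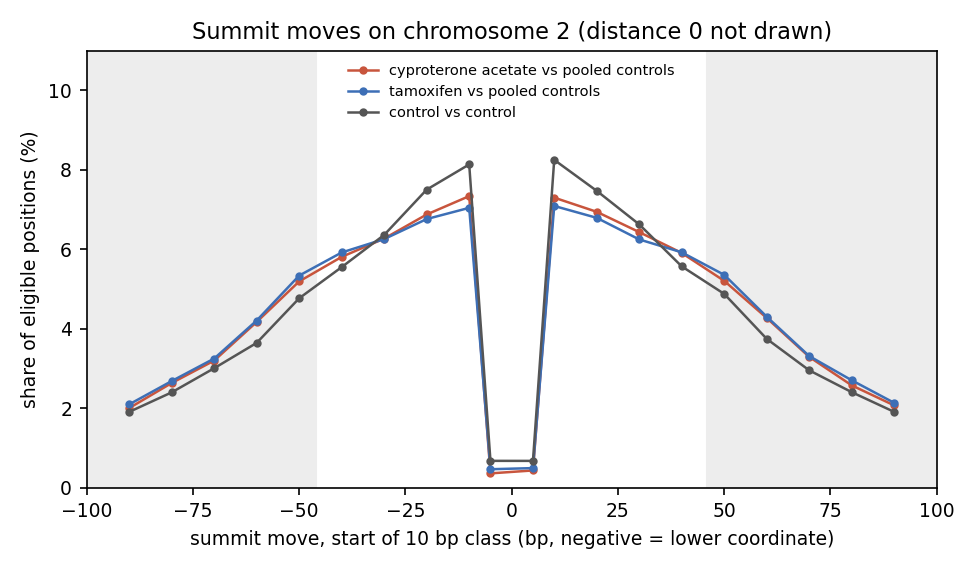
The plot gives the share of positions meeting the coverage limits (y axis, percent) in each 10 bp class of summit move (x axis, bp, drawn at the start of its class, and at 5 bp for the class of 1 to 9 bp), with negative moves toward the lower coordinate and shading over the shifted positions. Lines are cyproterone acetate, tamoxifen and the control pair, each nearly symmetric about 0. The class of 1 to 9 bp is nearly empty because summits sit on a grid of 10 bp.

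The distance of 50 bp marked no break in the data. Most summits sit on a grid of 10 bp, and 94.0% of shifts under cyproterone acetate, 93.2% under tamoxifen and 90.5% in the control pair were multiples of 10 bp. Just inside the limit, at 50 bp, were 9481 positions under cyproterone acetate, 13089 under tamoxifen and 8871 in the control pair. Just outside, at 40 bp, were 10682, 14434 and 10124. Another 657, 1081 and 1215 lay at 41 to 49 bp. The classes of distance fell steadily, from 14.6% of eligible positions at 10 to 19 bp under cyproterone acetate to 10.4% at 50 to 59 bp and 4.08% at 90 to 99 bp. Tamoxifen ran from 14.1% through 10.7% to 4.24%, and the control pair from 16.4% through 9.65% to 3.82%. The control pair thus held more short moves and fewer long ones. At distance 0, the 3 tables held 11.6%, 11.6% and 11.5% of eligible positions, some of which had no summit of their own on 1 side.

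The share of shifted summits was lower at well covered positions than at thin ones in all 3 tables. Where the less covered side held 2 to 2.5 reads, 36.1% of positions were shifted under cyproterone acetate, 36.1% under tamoxifen and 33.0% in the control pair. At 4 to 4.5 reads the shares were 33.0%, 32.6% and 24.4%. At 7 to 9.5 reads they were 18.8%, 25.6% and 17.9%, and at 10 to 14.5 reads 24.2%, 24.6% and 17.5%, so under cyproterone acetate the share did not fall at each step. With at least 15 reads on both sides, 22 of 103 positions were shifted under cyproterone acetate (21.4%), 19 of 89 under tamoxifen (21.3%) and 5 of 41 in the control pair (12.2%). A read limit of 3 left 34.0%, 34.6% and 27.5%, so the gap between the treatments and the control pair was wider there than under the rule in units.

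At equal read numbers on both sides the treatments lay above the control pair up to 6 reads. At 2 reads each, 37.0% of 43785 positions were shifted under cyproterone acetate (36.6% to 37.5%), 37.4% of 38913 under tamoxifen (36.9% to 37.9%) and 34.3% of 27662 in the control pair (33.8% to 34.9%). At 3 reads the shares were 37.1% (36.3% to 38.0%), 37.5% (36.6% to 38.4%) and 31.1% (29.9% to 32.2%). At 4 reads they were 34.1% (32.5% to 35.7%), 34.3% (32.6% to 36.0%) and 25.5% (23.3% to 27.9%). At 5 reads the shares were 30.1% of 869 (27.2% to 33.3%), 34.3% of 791 (31.0% to 37.6%) and 23.1% of 324 (18.9% to 28.0%). At 7 reads the 3 shares were 21.3%, 23.3% and 21.6% on 61, 60 and 37 positions.

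**Figure D2:**
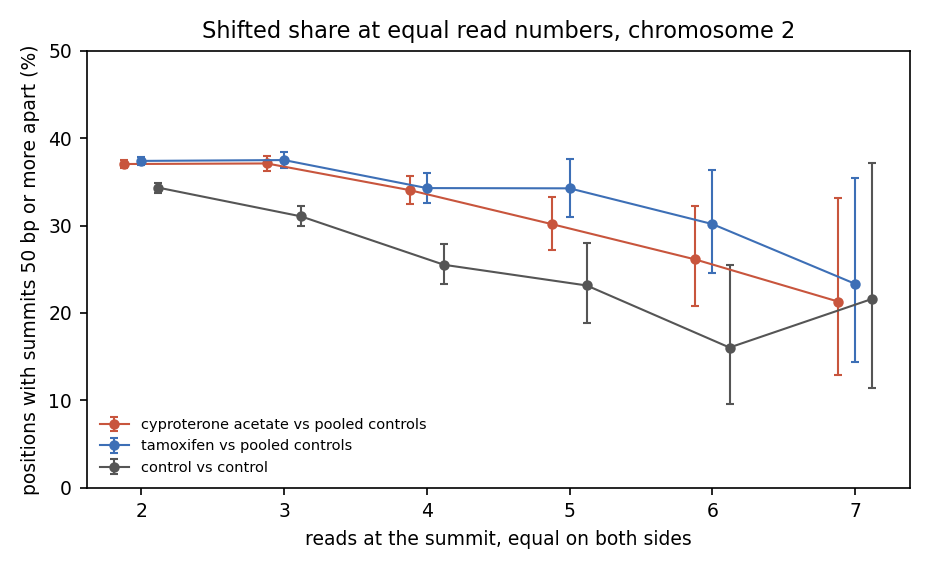
The plot gives the percent of positions with summits at least 50 bp apart (y axis) by the number of reads at the summit, equal on both sides (x axis), for cyproterone acetate, tamoxifen and the control pair. Points are shares and bars are 95% Wilson intervals over positions, and both treatments lie above the control pair from 2 to 6 reads and not at 7.

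Equal reads do not mean equal occupancy here, because the pool is deeper than the treated library and joins 2 libraries. A position with the same read number on both sides thus had a lower scaled coverage in the controls. With 2 reads of the pool for each treated read, a ratio above that of the depths, the shares under cyproterone acetate were 37.2% (2 against 4 reads), 32.7% (3 against 6), 30.6% (4 against 8) and 27.8% (5 against 10, 54 positions). Under tamoxifen they were 36.7%, 33.8%, 33.4% and 21.7% (60 positions in the last). The pool was fed by both controls at some positions and by 1 at others. At 3 equal reads the shifted share was 37.0% with both and 37.3% with 1 under cyproterone acetate, and 37.3% and 37.8% under tamoxifen. At 4 reads it was 32.8% of 2553 and 37.9% of 809 under cyproterone acetate, and 34.2% and 34.6% under tamoxifen. At 5 reads it was 29.8% and 32.2% of 121 under cyproterone acetate, and 32.9% and 41.8% of 122 under tamoxifen. How far the make-up of the pool adds to the gap from the control pair was not tested.

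Part of the shifted positions lay where the controls did not share a summit with each other. Of the cyproterone acetate positions, 4625 had a position in the control table at the pooled summit with both controls at the limit, and at 646 of these (13.97%) the controls themselves were at least 50 bp apart. Of the tamoxifen positions this held for 1281 of 9079 (14.1%). Positions that moved less than 50 bp gave 11.4% and 12.3%. This match took control positions with a center within 10 bp of the pooled summit. That center lies midway between the control summits, so the match tends to leave out controls far apart by construction. These shares thus do not measure how often the controls disagree, which was 31.6% over the whole control pair. A stricter set, added with the data in view, took positions where both controls had at least 3 reads with summits within 10 bp of each other and the treated library had at least 3 reads. There, 582 of 2159 positions were shifted under cyproterone acetate (27.0%, interval 25.1% to 28.9%) and 620 of 2180 under tamoxifen (28.4%, 26.6% to 30.4%). All positions with a treated library at 3 or more reads and a pool at 6 or more gave 30.5% and 31.6%. With at least 5 reads in each library, 49 of 228 (21.5%) and 37 of 236 (15.7%) were shifted, beside 23.1% and 23.4% of all positions with a treated library at 5 or more reads and a pool at 10 or more.

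Fuzziness at shifted positions was close to that at positions that moved by 1 to 49 bp, and lower than at positions with a listed distance of 0. Under cyproterone acetate the median score was 45.0 in the treated library and 47.7 in the pool at shifted positions, and 44.7 and 47.3 at the 51945 positions that moved by 1 to 49 bp. Under tamoxifen it was 44.7 and 47.2 at shifted positions, and 44.6 and 47.0 at the 69428 others. In the control pair it was 42.3 in the shallower and 43.6 in the deeper library at shifted positions, and 41.6 and 43.6 at the 57929 others. At distance 0 the medians were 46.6 and 50.9 under cyproterone acetate, 48.02 and 50.4 under tamoxifen, and 44.1 and 45.8 in the control pair. In each table the less deep side had the narrower score, and shifted positions differed from those moved by 1 to 49 bp far less than the quartiles spread.

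The log2 ratio of the deposited fuzziness scores, treated over pool, had a median of -0.07 at shifted positions under cyproterone acetate. Its quartiles were -0.29 and 0.14. It was -0.09 under tamoxifen, with quartiles of -0.32 and 0.13. The control pair had -0.03, shallower over deeper, with quartiles of -0.30 and 0.21. At positions that moved by 1 to 49 bp the medians were -0.07, -0.08 and -0.04, and at distance 0 they were -0.12, -0.06 and -0.02. The treated side was the narrower at 59.0% of shifted positions under cyproterone acetate and 60.8% under tamoxifen, and the shallower control was the narrower at 56.2%. At 3 reads on both sides the median ratio at shifted positions was -0.08 under cyproterone acetate, -0.12 under tamoxifen and -0.04 in the control pair, beside -0.08, -0.13 and -0.04 at those that moved less. The treated library thus had the lower median score at shifted and less moved positions alike.

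**Figure D3:**
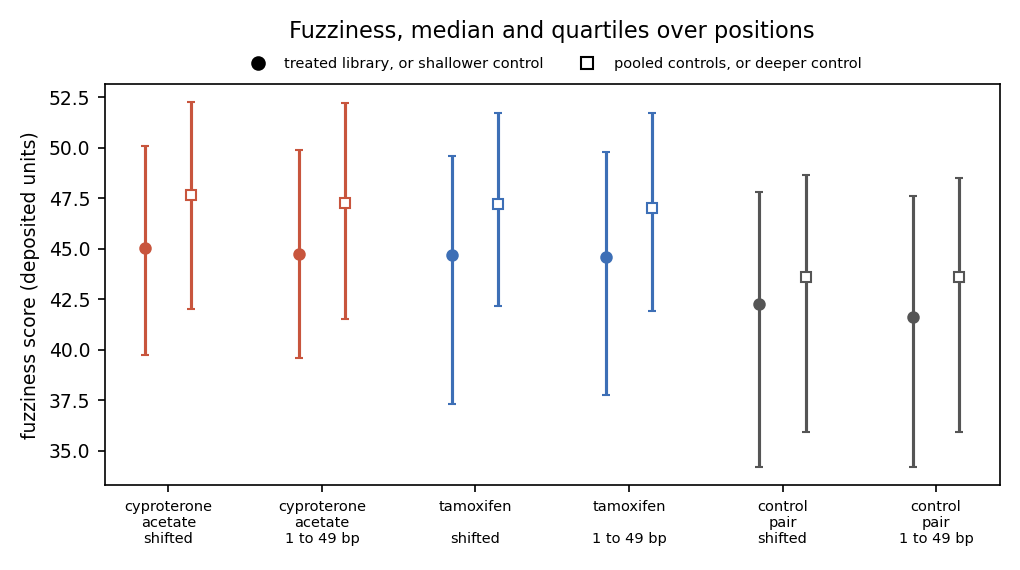
The plot gives the fuzziness score (y axis, deposited units, not starting at 0) as median and quartiles over positions, for shifted positions and those moved by 1 to 49 bp in each of the 3 tables (x axis). Filled circles are the treated library or the shallower control, open squares the pool or the deeper control. Within a table the medians of shifted and less moved positions lie far closer to each other than the quartiles.

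Shifted positions had slightly fewer reads than the others. The treated library held a mean of 3.82 reads at positions shifted under cyproterone acetate and 4.05 at those moved less (1 to 49 bp). Under tamoxifen the means were 2.89 and 3.03, and in the control pair the shallower library had 2.88 and 3.06. Both controls fed the pool at 70.6% of positions shifted under cyproterone acetate and at 75.1% under tamoxifen, beside 72.9% and 76.4% at those moved less. The scaled coverage of the treated side was above that of the pool by a median of 0.55 on the log2 scale at positions shifted under cyproterone acetate and by 0.51 at those moved less. Under tamoxifen the value was 0.13 in both groups. The limits differ between the sides, and their part in these values was not tested.

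The lists of both treatments had 2246 positions in common, paired by centers within 10 bp. These were 6.70% of the cyproterone acetate list and 4.84% of the tamoxifen list. The same share over all positions that met the limits is not given here. The tables share the pooled controls, and the center is the midpoint of both summits, so every such pair has the same direction and nearly the same pooled summit by construction. The shift was to the higher coordinate in 1142 of them (50.8%). The limit on centers also keeps the treated summits close to each other by construction. They were at most 20 bp apart, with a median of 10 bp. They were at the same base in 601 (26.8%), which is also the number of pairs with identical centers. Median reads were 3.5 under cyproterone acetate, 3 under tamoxifen and 4 in the pool, and median fuzziness was 45.0, 44.6 and 47.7. Only 76 had at least 5 reads in each treated library and in the pool, and 7 had at least 10.

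Few positions of 1 list had a center within 10 bp in the other table, as the center moves with the treated summit. Of 33512 cyproterone acetate positions, 6176 (18.4%) had a center within 10 bp in the tamoxifen table, of which 2952 met the coverage limits there. Of those 2952, 2246 were shifted there and 706 were not. Of 46376 tamoxifen positions, 8109 (17.5%) had one in the cyproterone acetate table, of which 3002 met the limits. Of those 3002, 2246 were shifted there and 756 were not. A match by center favours a like distance on both sides by construction. The shares with a center in the other table are not given for all positions that met the limits. At 154 of 2246 shared positions both controls had at least 3 reads, at a control center within 10 bp of the pooled summit. The control summits lay within 10 bp of each other at 67 of these and at least 50 bp apart at 11. Here too the match tends to leave out controls far apart. Of those 67, 9 had at least 5 reads in each treated library.

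Among the shared positions the 8 with the most reads on their least covered side are given with their values in every library (build rn6). Treated reads are those at each treated summit. Control reads are those at the pooled summit, which need not be the summit of either control. At chr2:49365157-49365362 the reads were 127.5 under cyproterone acetate, 57.5 under tamoxifen, 18.5 in the deeper control and 17.5 in the shallower. The treated summits lay 50 and 60 bp above the pooled summit. The controls were themselves 50 bp apart there, as far as cyproterone acetate lay from the pool, and around the same center. A center is the midpoint of both summits. So 1 control summit was at the pooled summit and the other at the cyproterone acetate summit. The deeper control held 23 reads at its own summit and 18.5 at the pooled one, so the latter was that of the shallower. Against the deeper control, cyproterone acetate was thus not shifted there. At chr2:197140602-197140812 there were 94, 60.5, 20 and 13.5 reads in the same order, and the treated summits lay 80 and 60 bp below the pooled one. The control summits were 45 bp apart.

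A shorter control distance was listed at chr2:161574962-161575162. The cyproterone acetate library had 15.5 reads and the tamoxifen library 11, both with their summit at base 161575022, which was 80 bp below the pooled summit. The deeper control had 12 reads and the shallower 3, and the control table listed their distance as 0. A near neighbour, chr2:161577882-161578092, had 11 reads under cyproterone acetate, 10.5 under tamoxifen, 8.5 in the deeper control and 6.5 in the shallower. Its treated summits lay 80 and 60 bp below the pooled one, again with a listed control distance of 0. The rule asks for at least 50 bp from the pool, so a distance above the listed 0 was fixed in advance. At chr2:436747-436957 the reads were 12.5, 28.5, 12.5 and 24, the shifts were 70 and 50 bp upward, and the control distance was 0. A listed distance of 0 can also stand for a side with no summit of its own.

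The other 3 had wider control distances. At chr2:156871412-156871612 the reads were 10.5 under cyproterone acetate, 10 under tamoxifen, 6 in the deeper control and 11.5 in the shallower, and both summits lay 60 bp above the pooled one, with the controls 20 bp apart. At chr2:194788547-194788757 they were 13, 9.5, 4 and 7, with shifts of 70 and 50 bp downward and the controls 35 bp apart. At chr2:1311162-1311367 they were 10, 14.5, 7.5 and 8, with shifts of 50 and 60 bp downward and the controls 40 bp apart. Of these 8 positions, 3 moved upward and 5 downward.

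**Figure D4:**
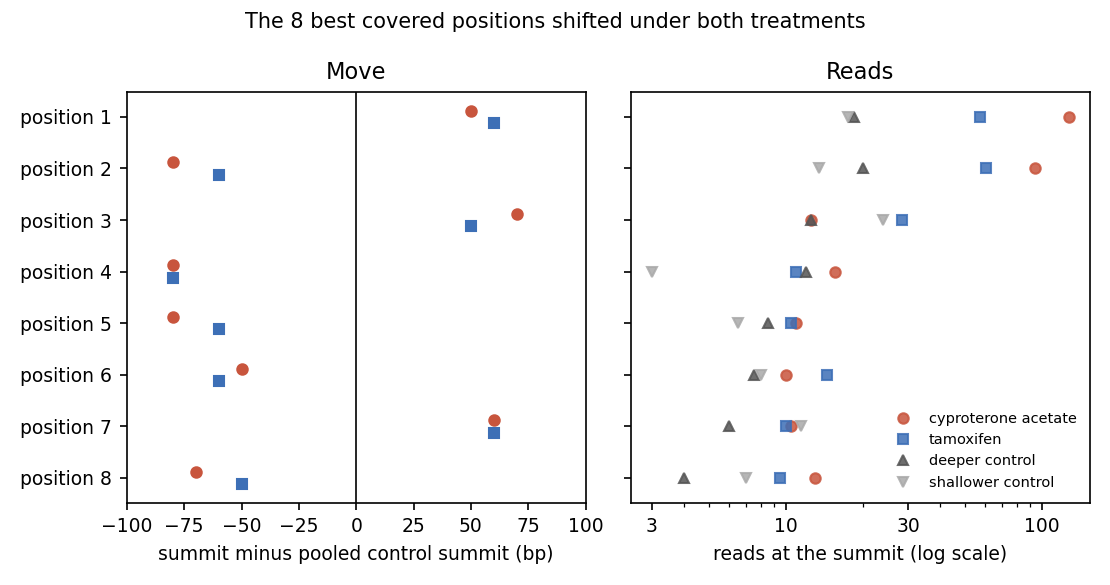
The left panel gives the move from the pooled control summit (x axis, bp, negative toward the lower coordinate) of the 8 shared positions with the most reads on their least covered side, numbered by that read number, and the right panel gives reads at the summit in each of the 4 libraries (x axis, log scale). Circles are cyproterone acetate, squares tamoxifen and triangles the controls, whose reads are those at the pooled summit. At positions 1 and 2 both treated libraries have more reads than either control.

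Of the 5 best covered shifts under cyproterone acetate, 1 was also a shift under tamoxifen. At chr2:197079702-197079902 the cyproterone acetate library had 71.5 reads and a summit 60 bp above that of the pool, which had 48 reads from the deeper control and 15 from the shallower. Tamoxifen, with 31.5 reads, lay 40 bp from the pool, and the controls lay 30 bp apart. At chr2:156860917-156861117 cyproterone acetate had 102.5 reads and lay 70 bp below a pool of 53, while the tamoxifen table listed a distance of 0 at the pooled summit and the controls were 10 bp apart. Its fuzziness was 56.9 in the treated library and 47.6 in the pool, so fragments were more spread there. The tamoxifen table listed 2 positions within 100 bp there, and only the one at the pooled summit is given. At chr2:160891127-160891327 cyproterone acetate had 64 reads and lay 50 bp above a pool of 52.5, with tamoxifen at 20 bp and the controls 10 bp apart.

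At chr2:197140892-197141092 cyproterone acetate had 110 reads and lay 80 bp below a pool of 35, with 17.5 reads from each control. Tamoxifen lay at 40 bp with 50.5 reads, and the controls were 10 bp apart. Fuzziness was 55.6 in the treated library and 47.3 in the pool. The remaining one of the best covered 5, chr2:49365157-49365357, is the first of the shared positions above. In 4 of these 5 the control summits lay at most 30 bp apart.

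Under tamoxifen the best covered shifts were at the lower limit of distance or just above it. At chr2:49363987-49364187 the tamoxifen library had 87 reads and lay 50 bp above a pool of 88.5 reads, with 42.5 from the deeper control and 46 from the shallower. Cyproterone acetate, with 121.5 reads, lay 35 bp from the same pool, and the listed control distance was 0. At chr2:49293507-49293707 tamoxifen had 61.5 reads and lay 50 bp above a pool of 85, with cyproterone acetate at 30 bp and the controls 10 bp apart. At chr2:160891517-160891717 it had 32.5 reads and lay 50 bp above a pool of 31.5, with cyproterone acetate at 40 bp and the controls 20 bp apart. The other 2 of these 5 overlap the first and second shared positions.

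The control pair held shifts of the same kind. The best covered was at chr2:193572827-193573027, where the shallower control had 34 reads and the deeper 26, with summits 50 bp apart. At chr2:420787-420987 they had 21.5 and 24.5 reads and lay 70 bp apart. At chr2:156860727-156860927 they had 19 and 19.5 reads and lay 50 bp apart. The highest read number at a shifted position was 34 here, beside 127.5 under cyproterone acetate and 121 under tamoxifen.

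The longest shifts had few reads. Under cyproterone acetate 3 positions at 95 bp were the longest with the most reads. They were chr2:194936744-194936944 with 7.5 treated reads against 6 in the pool, chr2:224163559-224163759 with 5.5 against 6, and chr2:34917449-34917649 with 5.5 against 5.5. At the first, tamoxifen lay 60 bp from the pool with 10.5 reads, and at the second it lay 50 bp away with 4. The longest under tamoxifen were 98, 98 and 97 bp, at chr2:36722108-36722308, chr2:193880013-193880213 and chr2:225787030-225787230, with 2 to 2.5 treated reads and 2.5 to 3 pooled ones. All of those pooled reads came from the deeper control, and the cyproterone acetate table listed 0 treated reads at each pooled summit.

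Shifted positions were spread along the whole of chromosome 2. In 267 bins of 1 Mb with at least 100 positions meeting the limits, the shifted share ran from 23.9% to 44.4% under cyproterone acetate, with a median of 35.2%. It ran from 25.2% to 42.2% under tamoxifen, with a median of 35.3%, and from 14.2% to 38.8% in the control pair, with a median of 32.0%. Over 5 equal parts of the chromosome it ran only from 33.6% to 36.3%, from 34.7% to 36.5% and from 31.2% to 32.1%.

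**Figure D5:**
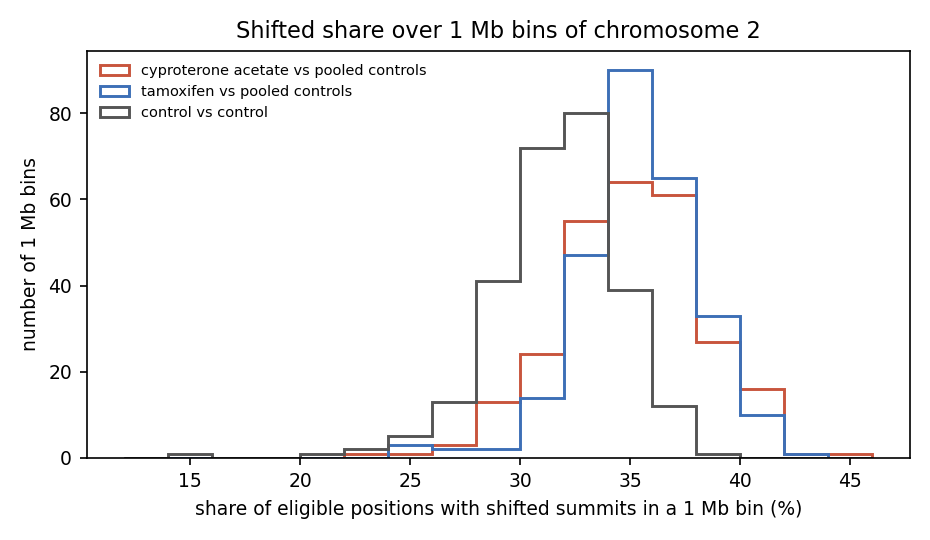
The plot gives the number of 1 Mb bins of chromosome 2 (y axis) by the share of positions meeting the coverage limits that were shifted (x axis, percent), for cyproterone acetate, tamoxifen and the control pair. The distributions overlap over most of their range, and the medians are 35.2%, 35.3% and 32.0%.

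The highest share of either treatment was in the same bin, chr2:51000001-52000000. There 123 of 277 positions were shifted under cyproterone acetate (44.4%), 177 of 419 under tamoxifen (42.2%) and 107 of 368 in the control pair (29.1%). The treatments share the control libraries, so these shares are not independent. A bin with low shares in all 3 tables had more reads. In chr2:156000001-157000000 the shares were 24.1%, 25.2% and 24.1%, and the less covered side held a mean of 5.27, 4.66 and 3.8 reads there. In chr2:51000001-52000000 those means were 2.95, 2.67 and 2.31 reads. Many reads did not always go with low shares. In chr2:49000001-50000000 the means were 5.11, 4.08 and 3.17 reads, and the shares were 35.6%, 36.1% and 27.2%.

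Shifts with many reads were bunched in a few places, as were all positions with many reads. Of the 76 positions shifted under cyproterone acetate with at least 10 reads on both sides, 50 (65.8%) lay in the 5 bins that held the most of them. Under tamoxifen 40 of 66 (60.6%) did so, and in the control pair 16 of 22 (72.7%). Of all positions with at least 10 reads on both sides, the top 5 bins held 188 of 326 (57.7%), 149 of 280 (53.2%) and 87 of 138 (63.0%).

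Some shifts had another summit near by. The nearest listed position lay a median of 165 bp from a shifted one under each treatment and 170 bp in the control pair, beside 150, 150 and 155 bp for positions moved less. A further summit of the control side lay within 100 bp of the treated summit at 15.4% of shifted positions under cyproterone acetate and 16.2% under tamoxifen, and one of the deeper control lay within 100 bp of the shallower at 14.2%. For positions moved less the shares were 11.7%, 12.1% and 10.1%. That further summit was nearer than the paired one at 179, 266 and 166 shifted positions. Another shifted position lay within 200 bp of 3.12%, 4.45% and 2.66% of them.

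On the X chromosome the same limits gave a like picture. Of 11043 positions, 3966 were shifted under cyproterone acetate (35.9%), beside 5725 of 14947 under tamoxifen (38.3%) and 4746 of 14240 in the control pair (33.3%). The median shift was 65 bp in each table. At 2 reads on both sides the shares were 41.2%, 41.4% and 36.9%, and at 3 reads 38.6%, 42.5% and 33.9%. At 4 reads they were 31.6% of 263, 37.1% of 224 and 33.3% of 90, so cyproterone acetate no longer lay above the control pair.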

How the data were processed

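Nucleosomal DNA of 4 rat sperm libraries was read from 6 deposited tables, 3 each for chromosomes 2 and X. The submitters' processing notes name Bowtie2, SAMtools 1.4 and build rn6; the sources used here do not name the position caller. Summit coverage is a signal scaled by the authors. The fuzziness score was deposited with each position. The authors computed a log2 ratio of fuzziness and the unsigned summit distance, per the file headers. The ratios given here were computed anew from the deposited scores, as treated over pool or shallower over deeper. A further 12 columns of single-library or pooled values were left out.

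In the treatment tables the side headed control was read as the treated library, since its values rise in steps of 1 size and the other side's in steps of 2 sizes, those of both controls. The headers of the control table do not show which side is replicate 1, so its sides are called shallower and deeper. The smallest step of each library was taken as 0.5 reads, and coverage was turned into reads on that basis. Pooled values were split into reads of each control. A move is the treated summit minus the pooled one. Shares carry 95% Wilson intervals. Read numbers are the depth behind each value, and PCR copies carry no molecular identifiers, so intervals cover counting only. No test was run, since each treatment has 1 library.

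The shifted positions and the lists were chosen with earlier results of these data known. Positions named were the 5 best covered and 3 longest shifts of each treatment, the 8 best covered shared ones, and 3 best covered ones of the control pair; coverage was ranked by the less covered side, and ties by the sum of reads. Alternatives were other distance, read and center limits, each control alone and chromosome X. Genes and sequence at these positions were not analysed here. Python 3.11.15, numpy 2.4.6, pandas 2.3.3, scipy 1.17.1 and matplotlib 3.10.9 were used, and the scripts were tested on simulated data.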

Additional observations from a re-analysis of the deposited data

How the results depend on the processing

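Shares of shifted positions depended on the limits in every table, and are given here in the order cyproterone acetate, tamoxifen, control pair. A distance limit of 20 bp gave 72.9%, 73.3% and 70.7%, one of 30 bp gave 59.1%, 59.8% and 55.8%, and one of 70 bp gave 15.8%, 16.2% and 14.6%. No position was left at 100 bp. With at least 2 reads on both sides the shares were 35.8%, 35.9% and 31.6%, with at least 3 reads 34.0%, 34.6% and 27.5%, with at least 5 reads 26.2%, 29.4% and 20.6%, and with at least 10 reads 23.3%, 23.6% and 15.9%. Coverage limits 2 times as high gave 28.2%, 31.2% and 23.6%, and chromosome X gave 35.9%, 38.3% and 33.3%. In each of these settings both treatments lay above the control pair. The number of shared positions was 601 at identical centers, 6910, 5070 and 687 at distance limits of 20, 30 and 70 bp, and 6100, 1172, 76 and 7 with at least 2, 3, 5 and 10 reads. It was 125 under the higher coverage limits and 157 on X.

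Some alternatives were added after seeing the data. Leaving out distance 0 gave 39.2%, 40.05% and 35.8%. Controls within 10 bp of each other gave 27.0% and 28.4% for the treatments, and 3 reads on each side with both controls in the pool gave 37.0% and 37.3%. Leaving out either control, with positions matched by center, was planned beforehand. It gave 6.48% and 8.48% under cyproterone acetate and 7.02% and 8.88% under tamoxifen. Centers lie midway between summits, so this match keeps few shifted positions by construction. Matching at the pooled summit, an added choice, gave 34.5% to 34.9% and 36.1% to 36.8%.

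Among these settings the median log2 fuzziness ratio turned positive in 3. It was 0.039 under cyproterone acetate with at least 10 reads, and in the control pair it was 0.0030 with at least 5 reads and 0.054 with at least 10; the cause was not tested. At equal reads on both sides it was also positive under cyproterone acetate at 7 reads (0.07) and in the control pair at 6 (0.04) and 7 reads (0.08). No paired analysis was possible because each treatment has 1 library and no result comes from a test. Location relative to genes was planned and not run. Depth limits the stricter settings, since with at least 10 reads on both sides 326, 280 and 138 positions remained.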
